A study of Mus musculus with 2 samples.

Results

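FoxO transcription factors are 4 genes of the mouse, Foxo1, Foxo3, Foxo4 and Foxo6, and all 4 were found by symbol among 21900 protein-coding genes of the RefSeq table. They were chosen by name, and each was examined with its flanks of 100 kb for summits, the called high points of H3K9bhb peaks. H3K9bhb is histone H3 carrying β-hydroxybutyrate on lysine 9, and it was profiled by 1 ChIP-seq library with 1 input DNA library beside it. Both libraries came from cultured spleen cells of C57BL/6 mice carrying the OT-I T cell receptor, which recognises an ovalbumin peptide. The cells were activated for 3 days with peptide (200 ng/ml) and IL-2 (10 ng/ml), turned into CD8+ memory T cells with IL-15 (10 ng/ml) over 4 days, and given β-hydroxybutyrate for 3 days. An untreated culture was not analysed here, so every group shares the treatment, and no peak here can be read as a response to it.

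FoxO proteins are forkhead transcription factors held in check by growth factor signalling. Active PI3K and AKT phosphorylate them, 14-3-3 proteins bind the phosphorylated form, and they leave the nucleus; when the signal falls they return and switch on genes of quiescence, stress resistance, cell death and gluconeogenesis. In CD8+ T cells Foxo1 keeps naive and memory genes such as Il7r and Klf2 active, and Foxo3 is known to limit the survival of responding T cells. Foxo4 is a widely expressed relative, and Foxo6 is best known from the brain.

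Foxo1 and Foxo3 each had a pair of H3K9bhb peaks, 1 on either side of the annotated transcription start, and no other summit lay inside or within 100 kb of any FoxO gene. Foxo4 and Foxo6 had no summit in their windows. The 4 peaks held 1 summit each, so 4 of the 2315 summits and 4 of the 2204 peaks belong to the family. The stretch of 250 bases directly upstream of each start is shown because the summits of both genes flank it. Capitals mark matches on either strand to GGGCGG (the Sp-type GC box) and to CCAAT (the CCAAT box, a motif added after the sequence was seen). The sequences are from RefSeq, build GRCm38.p6, written 5′ to 3′ on the strand of the gene. They lie at chr3:52268087-52268336 on the plus strand for Foxo1 and at chr10:42276696-42276945 on the minus strand for Foxo3.

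Foxo1: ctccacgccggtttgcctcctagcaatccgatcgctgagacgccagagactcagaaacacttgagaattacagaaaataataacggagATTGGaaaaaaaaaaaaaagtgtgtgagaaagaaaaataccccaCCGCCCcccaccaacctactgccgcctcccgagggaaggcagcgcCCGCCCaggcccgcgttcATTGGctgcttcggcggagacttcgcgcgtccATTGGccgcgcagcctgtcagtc

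Foxo3: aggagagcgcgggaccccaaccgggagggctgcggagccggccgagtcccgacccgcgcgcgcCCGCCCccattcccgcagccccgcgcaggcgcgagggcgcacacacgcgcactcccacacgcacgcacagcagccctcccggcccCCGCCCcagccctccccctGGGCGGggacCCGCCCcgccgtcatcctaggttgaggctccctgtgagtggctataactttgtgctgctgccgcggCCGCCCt

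Both stretches were rich in CpG. The Foxo1 stretch had 56.0% G and C and 20 CpG, and 17.9% of the 32851 promoter stretches of the table had as many CpG. The Foxo3 stretch had 76.4% G and C and 31 CpG, with as many in 5.19% of stretches. The medians over all stretches were 52.4% and 6 CpG. Promoters with a peak within 2 kb of their start were themselves richer in CpG, with medians of 66.0% G and C and 21 CpG (2261 stretches) against 51.6% and 5 CpG (30590 stretches) in the others. Foxo1 therefore lay under the GC median of the promoters with a peak and Foxo3 above it.

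The GC box GGGCGG occurred 2 times in the Foxo1 stretch and 5 times in that of Foxo3, and 32.7% of all stretches held at least 1 match. CCAAT occurred 3 times in Foxo1, at 162, 55 and 23 bases before the start, and was not found in Foxo3; 33.8% of stretches held it. CANNTG, the E-box, occurred 1 time in Foxo1, with the letters CACTTG at 193 bases before the start, and 66.2% of stretches held one. No match was found in either gene to TGTTTAC (the core motif that forkhead proteins bind, in 3.17% of stretches), to TGACGTCA (the cyclic AMP response element, in 1.55%) or to TATAAA (in 12.4%). In promoters with a peak within 2 kb of their start the shares were 71% for GGGCGG, 31.1% for CCAAT and 52.1% for CANNTG. In the others they were 29.9%, 34.1% and 67.3%. For TGTTTAC, TGACGTCA and TATAAA the shares were 2.3%, 2.7% and 4.69% with a peak, and 3.23%, 1.46% and 12.9% without. A GC box was therefore the common case among promoters with a peak. Matches were counted on both strands, and the motif searches could overlap one another. They describe letters and not bound sites.

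Foxo1 lies on chromosome 3 from 52268337 to 52350109, a span of 81.8 kb read on the plus strand. Its upstream summit, at 52268021, was 316 bp before the start and in no annotated gene. The second summit, at 52269887, was 1550 bp after the start, inside Foxo1 and 80.2 kb from its transcript end. The exons and introns of the gene were not used here, so the class of sequence under this summit is not given. The summits were 1866 bp apart and were called as separate peaks.

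Both Foxo1 peaks had a score of 3.17. The score is the authors' −log10 of a p or q value, and scores of all peaks ran from 2.01 to 1167.46, with a median of 5.04. The share of peaks with at least this score was 80.4%, so they stood in the lower part of the list. The same score of 3.17 was given to 56 peaks (2.54%), so equal scores at both summits say little about equal signal. With 1 library no score has a replicate error, and whether a low score reflects few cells with the mark or little of it in each cell cannot be told apart.

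The Foxo1 pair stood alone in its region. The next summit below it, at 52102222, was 166.1 kb from the gene and 3097 bp inside an end of Maml3, a coactivator of Notch signalling; it also scored 3.17. On the other side the next summit, at 55112196, was 2762 kb away and 88 bp from an end of Spg20. The nearest protein-coding genes were Maml3 at 163.0 kb and Cog6 at 632.0 kb. The window of 100 kb held no other protein-coding gene, only the lncRNA genes Gm30125 (11.8 kb away) and Gm30074 (88.2 kb) and the pseudogenes Olfr1398-ps1 (30.6 kb) and Gm34303 (75.2 kb). None of the 4 had a summit inside or within 5 kb. The end of Gm30125 was the nearest annotated end of another gene.

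Foxo3 lies on chromosome 10 from 42181845 to 42276695, a span of 94.9 kb read on the minus strand, so its start is the higher coordinate. One summit, at 42276623, was 72 bp after the start, inside the gene and 94.8 kb from its transcript end. The other, at 42278237, was 1542 bp upstream and in no annotated gene. The summits were 1614 bp apart. Here the near summit was on the transcribed side and the far one upstream, the reverse of the arrangement at Foxo1.

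The 2 Foxo3 peaks scored 4.22 and 6.04, both above those of Foxo1. The peak at the start had the lower of the 2 values, and 65.4% of the list reached at least that score. For the upstream peak the share was 33.9%, which made it the highest-scoring peak of the family. The score depends on local read depth, so the order of the peaks is a description of this list.

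The lncRNA gene Gm38485 lies wholly inside Foxo3 and ends 1886 bp from its start. The Foxo3 summit nearest to it was 1814 bp away, and neither summit was inside it. Afg1l, which encodes a mitochondrial ATPase, was the nearest protein-coding gene, 35.9 kb beyond the start, and the upstream summit was 34.3 kb from it. Armc2 was 163.5 kb away on the other side. The third gene in the window, the lncRNA Gm40630 at 99.9 kb, had no summit inside or within 5 kb, and Afg1l had none. The next summits were 294.4 kb below the gene, inside Sesn1 and 40 bp upstream of one of its annotated starts (score 11.9), and 307.6 kb above it, 681 bp from an end of Nr2e1 (3.17). Sesn1 encodes a sestrin, a stress-induced inhibitor of mTOR complex 1 and a textbook FoxO target.

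**Figure D1:**
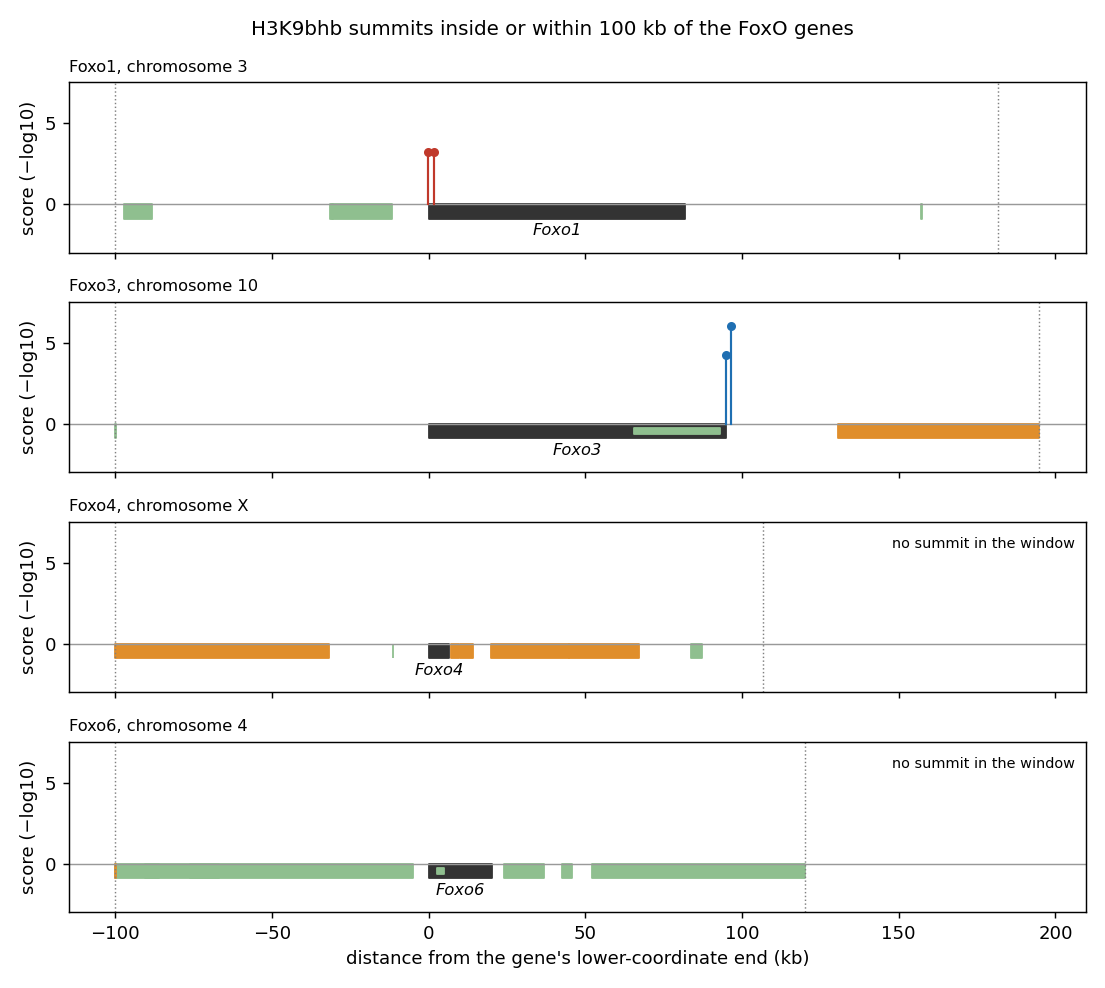
Summits inside or within 100 kb of each FoxO gene, by distance from the lower-coordinate end in kb (x) and score, −log10 of p or q (stems, y). Black bars are the FoxO genes, orange bars protein-coding neighbours, green bars other genes, and dotted lines the window; 2 stems stand at 1 end of Foxo1 and of Foxo3, and the other windows are empty.

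Foxo4 lies on the X chromosome from 101254261 to 101260873, a span of 6.61 kb. The nearest summits were 990.8 kb above it, at 102251696, 485 bp from an end of Cited1, and 11765.8 kb below it, at 89488447. Its window held 5 other protein-coding genes, all without a summit inside or within 5 kb: Gm614 (0.5 kb away), Il2rg (3.51 kb), Med12 (13.2 kb), Snx12 (31.7 kb) and Nlgn3 (38.3 kb). Il2rg encodes the common gamma chain, a subunit of the receptors for IL-2 and IL-15, the cytokines of this culture. The snRNA gene Gm22472 and the lncRNA gene Gm31385 had none either. On X, 18 of 966 protein-coding genes (1.86%) had a peak inside or within 5 kb, and with flanks of 100 kb it was 64 (6.63%). An X gene with an empty window of this size was therefore the common case.

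Foxo6 lies on chromosome 4 from 120267078 to 120287261, a span of 20.2 kb. The nearest summits were 282.6 kb above it, at 120569850, 426 bp from an end of Ctps, which encodes a CTP synthase, and 533.1 kb below it, at 119733972, 213 bp from an end of Hivep3. They scored 4.26 and 3.50. The window held Edn2, the gene of endothelin-2, 99.7 kb away, and 7 lncRNA genes, among them Foxo6os (3.87 kb), Gm36134 (4.93 kb) and Gm52678, which lies inside Foxo6. None had a summit inside or within 5 kb. Scmh1, the nearest protein-coding gene on the other side, was 117.9 kb away.

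Set against all genes, 2 of 4 FoxO genes (50%, exact 95% interval 6.76 to 93.2) had a peak inside or within 5 kb, against 2489 of 21900 protein-coding genes (11.4%). The interval covers counting error only and includes the share of all genes, so the count of 4 genes does not set the family apart. Within 2 kb of a gene end the counts were 2 of 4 and 2058 of 21900 (9.4%). With flanks of 100 kb they were again 2 of 4, against 34.4% of all genes, and 10.2% of all genes had 2 or more peaks in such a window, as Foxo1 and Foxo3 did. Longer genes had a peak more often: the share was 18.6% of the 3484 genes of 50 to 150 kb, the range of Foxo1 and Foxo3, and 10.5% of the 8217 genes of 5 to 25 kb, the range of Foxo4 and Foxo6. By chromosome the share was 11.6% on chromosome 3, 14.0% on chromosome 10 and 12.9% on chromosome 4.

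The strand of Foxo1 and Foxo3 places their peaks at the start and not at the transcript end. Starts were known for 17492 protein-coding genes, of which 1676 (9.58%) had a peak within 2 kb of an annotated start. At the end of the gene opposite to the start, 144 (0.823%) had one. Foxo1 and Foxo3 had none there, since their summits were 80.2 to 96.4 kb from it.

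Each FoxO pair had 1 peak within 500 bp of the start and 1 beyond 1500 bp. Of 1560 peaks within 2 kb of the nearest protein-coding start, 1150 (73.7%) were downstream and 410 (26.3%) upstream. The median position was 123 bp downstream and the quartiles were -11.25 and 246.25 bp, negative being upstream. Of the FoxO summits only that of Foxo3 at 72 bp lay between the quartiles. The summit was within 500 bp in 1383 of the 1560 peaks (88.7%), as at Foxo3 (72 bp downstream) and Foxo1 (316 bp upstream). In 23 (1.47%) it was 1500 bp or farther. Within the limit of 2 kb, the Foxo1 summit at 1550 bp is 1 of 13 that far downstream. The Foxo3 summit at 1542 bp is 1 of 10 that far upstream. Peaks beyond 2 kb of a start do not enter these counts.

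**Figure D2:**
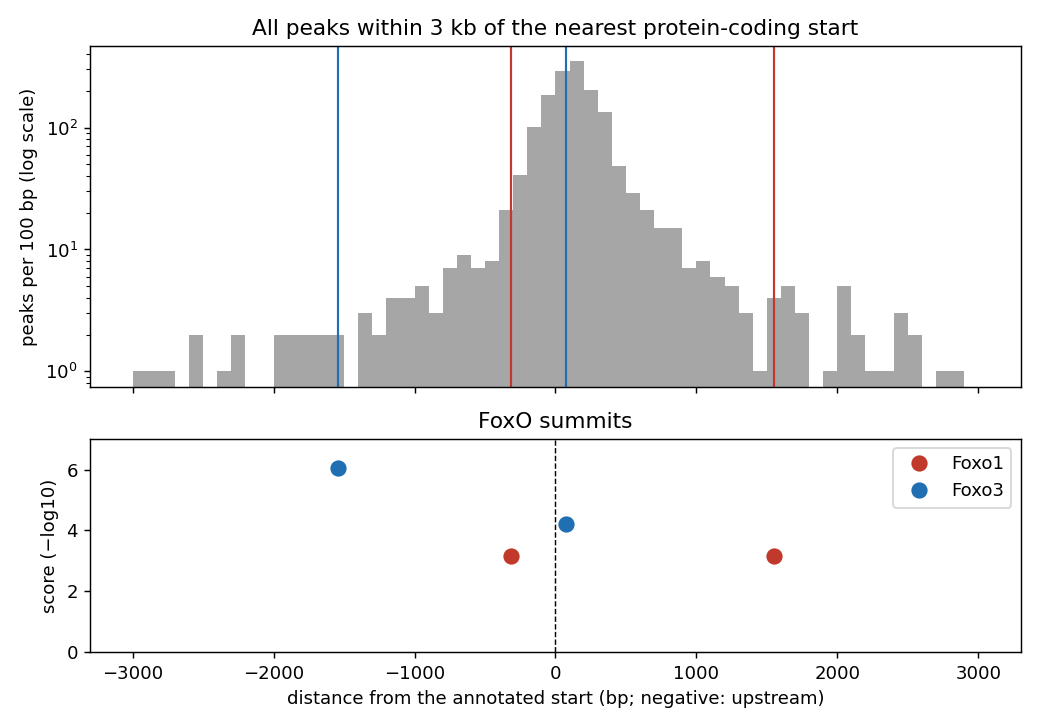
Upper panel: number of peaks per 100 bp (log scale) by distance from the nearest protein-coding start in bp, with lines at the FoxO summits. Lower panel: score, −log10 of p or q, of the Foxo1 (red) and Foxo3 (blue) summits by the same distance. For each gene 1 summit lies within 500 bp of the start and the other beyond 1500 bp.

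Few genes had a peak on both sides of the same end. Of the 2204 peaks, 97 (4.4%) had another peak within 2 kb. Among 21900 protein-coding genes, 21 (0.0959%) had a peak on each side of the same end, both within 2 kb; 18 of these were nuclear and 3 mitochondrial. The count depends on the definition: it was 38 with windows of 5 kb, 57 when every summit was used and 8 in the top 50% of peaks by score, and with windows of 1 kb neither FoxO gene was among the 17 left. Counted around annotated starts alone the number was also 21, of 17492 genes (0.12%). The arrangement was defined from the peaks of Foxo1, so Foxo1 is a member by definition and these counts support nothing about it. Of the 18 nuclear genes, all of known strand, 17 had the pair at the start. The exception was Acoxl, whose transcript end lies 214 bp from an end of Bcl2l11 and shares its pair. Ccdc92 and Zfp664, named after their values were seen, have ends 206 bp apart and also share 1 pair. The 18 genes therefore do not stand for 18 separate pairs.

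Among the 18 nuclear genes with both summits within 2 kb of the same gene end, the FoxO pairs were the most widely spaced. The spacing was 1866 bp at Foxo1 and 1614 bp at Foxo3, then 1491 bp at Foxl2, a forkhead gene of the ovary with 3 peaks; the median over the 18 genes was 816.5 bp and the lowest 460 bp, at Bmp2k. Around annotated starts, with the same limit of 2 kb, the pair of Ebf3 (1652 bp) came between those of Foxo1 and Foxo3. Pairs with a summit beyond 2 kb do not enter. This ranking was made after the values were seen and was not tested. For Foxl2 the widest pair was used.

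By the sum of the differences of both distances from those at Foxo1, the most similar gene was Foxl2 (375 bp), with summits 206 bp outside and 1285 bp inside its start. The measure leaves out gene length and neighbours. The inner summit of Foxl2 was 1234 bp from the other end of that gene, against 80.2 kb at Foxo1. An end of a lncRNA gene lay 297 bp from the Foxl2 start, while the nearest other end at Foxo1 was 11.8 kb away. Ctnnb1, the gene of β-catenin, followed (802 bp), with summits 41 bp outside and 1023 bp inside. The mitochondrial gene ND1 (829 bp), Chsy1, a chondroitin synthase gene (940 bp), and Elmo1, a regulator of Rac signalling (1001 bp), came next. Foxo3 was far from Foxo1 by this measure (2704 bp), since its near and far summits are on opposite sides.

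**Figure D3:**
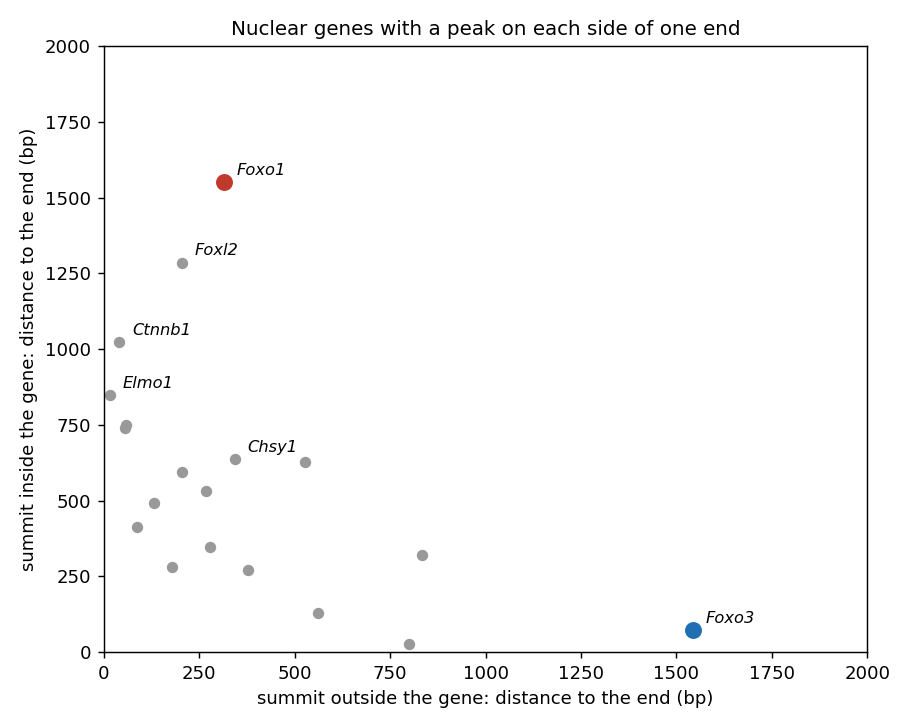
Distance to the gene end, in bp, of the summit outside the gene (x) and of the summit inside it (y), for nuclear genes with a peak on each side of one end. Each point is a pair; Foxo1 (316 and 1550 bp) and Foxo3 (1542 and 72 bp) lie at the margins of the cloud.

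Upstream of FoxO proteins, 9 of 29 listed kinases, phosphatases and receptors (31.0%, interval 15.3 to 50.8) had a peak inside or within 5 kb, beside 11.4% of all protein-coding genes. Their median highest score was 2.62, against 5.04 over all genes with a peak. The list was fixed with earlier results of these data known, so its share is a description. Scores stand in parentheses after each gene, and distances are to the nearest annotated start of the gene itself, since several of these genes have more than 1. Foxo1 and Foxo3 have 1 start each in the table, at the end of the gene.

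The growth factor receptor gene Igf1r (2.42) had a summit 1307 bp upstream of its start. In the PI3K step, Pik3r1, the gene of the regulatory subunit p85α, had a summit 107 bp upstream of 1 start (5.04) and another 1974 bp upstream of a second start, inside the gene (6.08). Pik3cb (2.08), a catalytic subunit gene, had one 49 bp downstream. Pdpk1 (2.01), the gene of the kinase that activates AKT, had its summit 199 bp upstream of a start inside the gene, 13826 bp from its outer end. These summits all lay within 2 kb of a start.

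The AKT kinases phosphorylate FoxO proteins directly. The summit of Akt1 (2.62) was 4112 bp outside its start and nearer to an end of Zbtb42, 348 bp away. The highest score was at Rictor (12.4), a subunit of the mTOR complex that phosphorylates AKT, 145 bp upstream of the start. Mtor itself (7.89) had one 120 bp downstream. Mapk8 (6.60), the gene of the stress kinase JNK1, had one 178 bp upstream of a start and 17 bp inside the outer end of the gene. The other 20 members had none; among them, named after their values were seen, were Akt2, Sgk1 and Stk4, which encode further FoxO kinases.

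Of 27 genes for proteins that bind or modify FoxO, 7 (25.9%, interval 11.1 to 46.3) had a peak inside or within 5 kb. The share of all protein-coding genes, 11.4%, lies inside that interval. The median highest score of the 7 genes was 5.63. Ctnnb1 (7.01 and 4.26), whose product is a FoxO cofactor, had the pair described above. Crebbp (6.83), the gene of the acetyltransferase CBP, had a summit 748 bp upstream of its start, 195 bp outside the gene, and another 3665 bp beyond its transcript end that was nearer to Trap1. The deacetylase gene Sirt1 (2.49) had one 68 bp upstream, and the methyltransferase gene Setd7 (4.22) one 545 bp inside.

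Mdm2 (7.53), the gene of a ubiquitin ligase, had a summit 527 bp inside its start. Xpo1 (3.17), the gene of the nuclear exportin that carries FoxO out, had one 614 bp upstream. Trib1 (5.63), a pseudokinase gene, had one 513 bp outside its lower-coordinate end. All 7 had a summit within 2 kb of an end. The other 20 had none, including every listed 14-3-3 gene, named after their values were seen: Ywhab, Ywhae, Ywhag, Ywhah, Ywhaq, Ywhaz and Sfn.

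Among FoxO target genes the shares were near the 11.4% of all genes. In T cells it was 3 of 24 (12.5%, interval 2.66 to 32.4): Bcl2l11 (7.89 at both of its summits), which encodes the death inducer BIM, Rbl2 (7.95), a pocket protein of quiescence, and Eomes (3.17), which encodes a T-box protein of CD8 memory. Bcl2l11 had its summits 132 bp upstream and 492 bp downstream of the start, the second nearer to the transcript end of Acoxl. The summits of Rbl2 and Eomes were 179 and 864 bp downstream of the start. The other 21 had none, and among these were Il7r, Ccr7, Klf2, S1pr1 and Tcf7, homing, survival and memory genes known to depend on Foxo1 in T cells, named after their values were seen.

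Among metabolic and stress targets it was 4 of 26 (15.4%, interval 4.36 to 34.9). Gadd45a (6.37), a damage-response gene, and Sod2 (3.65), the gene of the mitochondrial superoxide dismutase, had summits 212 and 210 bp inside the start. Sesn1 had one 423 bp upstream (5.51), nearer to an end of Cep57l1, and one 40 bp upstream of a second start, 76825 bp inside the gene (11.9). Ppargc1a (4.54), the PGC-1α gene, had one 2190 bp inside its higher-coordinate end; the 1 start in the table lies farther inside the gene. Over the 4 pathway lists together, 23 of 104 distinct genes (22.1%) had a peak, beside 11.4% of all protein-coding genes. The lists were fixed with earlier results known, so this share is a description.

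**Figure D4:**
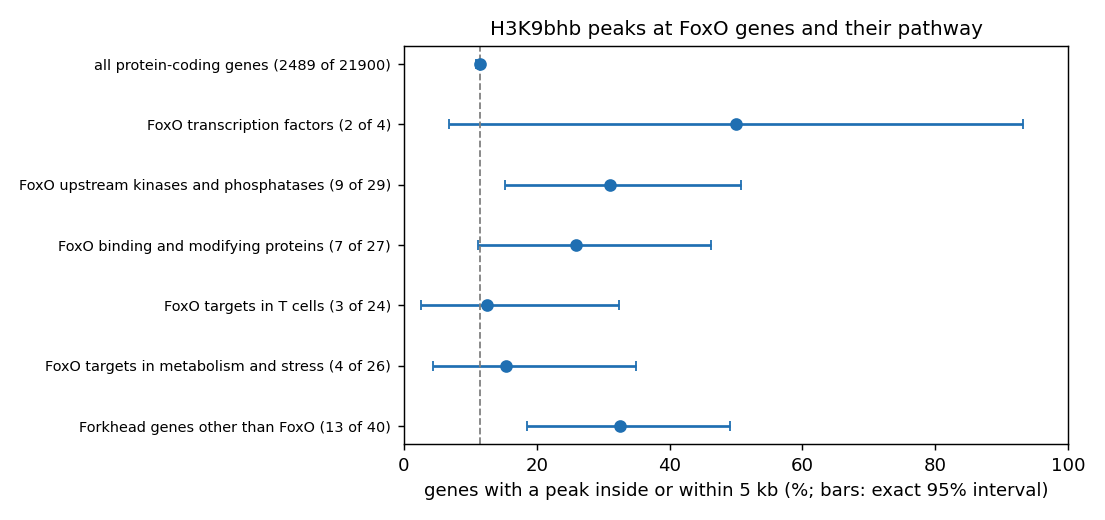
Share of genes with a peak inside or within 5 kb, in percent (x), for all protein-coding genes, the FoxO genes, the 4 pathway lists and the other forkhead genes; bars are exact 95% intervals and cover counting error only. The dashed line is the share of all protein-coding genes, 11.4%, which lies inside the interval of the FoxO genes (6.76 to 93.2).

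The other forkhead genes had peaks in 13 of 40 cases (32.5%, interval 18.6 to 49.1), beside 11.4% of all protein-coding genes. Their median highest score was 4.29, against 4.61 for the FoxO genes with a peak. The difference between 2 of 4 and 13 of 40 was not tested, and the intervals of both shares overlap. Foxl2 and Foxq1 were the others with several peaks. Foxl2 had 3, of which the highest scored 3.50. Foxq1 had 2 inside the gene, 2 bp from its lower-coordinate end (10.9) and 1288 bp from the higher one (3.85). Of the rest, Foxd1 (10.5), Foxi3 (4.54) and Foxd2 (4.29) had summits 237, 274 and 15 bp inside the start, and Foxp1 (5.63), a factor of T cell quiescence, had one 27 bp outside the gene and 1780 bp upstream of its nearest annotated start.

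Foxb1 (7.89), Foxn2 (3.17), Foxp2 (2.51) and Foxc2 (2.51) had summits inside the gene, 1564, 569, 210 and 337 bp from an end. Foxa2 (2.51) had one inside the gene, 1564 bp downstream of its nearest annotated start and 1023 bp from its transcript end. The summits of Foxk1 (5.98) and Foxm1 (3.17) lay outside and were nearer to Ap5z1 and Rhno1. Many of these genes act in development, and none but Foxq1 and Foxd1 scored above 10.

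The peak list does not by itself check the labelled cell type. None (0) of 8 CD8 T cell identity genes, Cd8a, Cd8b1, Cd3d, Cd3e, Cd3g, Cd247, Lck and Zap70, had a peak inside or within 5 kb, which leaves room for shares up to the exact limit of 36.9%, or 37.5% if 3 counts are taken as the limit of a count of 0. The 8 B cell and myeloid markers had 0 as well. The share of all protein-coding genes, 11.4%, lies inside the interval of both lists (0 to 36.9). Neither count of 0 therefore sets its list apart. The labels give 70 M reads for each library; the reads behind single peaks were not analysed here. The list also held 9 mitochondrial peaks, although mitochondrial DNA has no histones, so a call is not proof of the mark.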

How the data were processed

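H3K9bhb was profiled in 1 ChIP library (4 µg antibody; paired-end reads of 150 bp) beside 1 input library. The tools named, per the submitters' processing notes, are MACS2 2.1.2, Bowtie2 2.3.5, Trimmomatic 0.39 and FastQC 0.11.8, with build mm10. Neither the peak settings nor the use of the input is stated there. The deposited values are −log10 p or q values at summits of 1 bp, read as the authors' scores; which of the 2 is not stated. The summit with the highest score stood for its peak, except for the windows of 100 kb, where every summit was read. Genes came from the RefSeq table of GRCm38.p6, the assembly behind mm10, and strands and starts from the RefSeq promoter table, which matched Foxo1 and Foxo3 (gene ends can lie outside the annotated starts of other genes); Foxo4 and Foxo6 are missing entries. Motifs were searched in the 250 bases upstream of each start. The planned protein comparison was not run.

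The members and lists were chosen with earlier results of these data known. The 7 lists (159 distinct genes) all matched the table. Named were the FoxO genes, genes at or beside their summits, list members with a peak, and the 5 genes most like Foxo1 in arrangement; any other is marked as picked with its values known. A few list members are counted and not reported here by name. With 1 ChIP library there is no replicate and no p-value is given. Intervals are exact (Clopper-Pearson, 95%) and cover counting error only. Alternatives covered flanks, windows, stricter score thresholds, all summits and all annotated genes. The counting functions were checked on simulated summits. Calculations ran in Python 3.11.15 (scipy 1.17.1, pandas 2.3.3, numpy 2.4.6), with plots from matplotlib 3.10.9.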

Additional observations from a re-analysis of the deposited data

How the results depend on the processing

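The peaks at Foxo1 and Foxo3 depend on the score threshold. Among the top 50% of peaks by score, 1 peak was left in the FoxO windows, the upstream one of Foxo3, so 1 FoxO gene had a peak inside or within 5 kb and 1 within 2 kb of an end, and neither gene had a pair; in the top 10% all 3 counts were 0. In those thresholds' order, upstream kinases and phosphatases fell to 4 and 1, binding and modifying proteins to 4 and 0, metabolic and stress targets to 2 and 1, and other forkhead genes to 5 and 2; T cell targets fell to 0 in the top 10%. The share of all protein-coding genes was then 5.77% and 1.27%, since fewer peaks were used. It was 10.65% and 12.95% with flanks of 2 and 10 kb, 10.57% at gene ends alone and 6.38% over all annotated genes. Genes with a peak on each side of an end numbered 38 with windows of 5 kb, 8 in the top 50% and 57 with every summit. With windows of 1 kb they numbered 17, and neither FoxO gene was among them. Without mitochondrial genes, a count chosen after seeing the data, there were 18. Of 58 alternatives over 10 results, 34 stayed within 1.5 times of the count or within the interval of the share, and 24 moved farther. Among those that stayed were all flanks, windows and summit choices for the FoxO counts. The depth behind each peak is unknown, and the absence of a call at Foxo4 and Foxo6 does not show that the mark is absent.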
